A study of Homo sapiens with 8 samples.

Results

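The TET and other nucleic acid dioxygenases described here were 7 genes, *TET1*, *TET2*, *TET3*, *FTO*, *ALKBH5*, *ALKBH1* and *ALKBH3*, picked by gene symbol. No measured value entered that rule, but the genes were chosen with earlier results of these data known. They were 7 of the 23193 genes counted in the series, and all 7 passed the filter on low counts both in gene bodies (16686 genes tested) and in transcription start site (TSS) regions (15212 genes tested). The assay was PRO-seq, in which engaged RNA polymerases extend and label their transcripts in isolated nuclei, so that reads count active polymerases and not accumulated RNA. The cells were HCT116, an established human colorectal carcinoma line, either wild type (WT) or HIF1A-/-. Each genotype was held in normoxia or exposed to 1% O2 for 90 min, with DMSO as vehicle in every culture and 2 libraries per group, 8 in all. In the HIF1A-/- line, internal exons of *HIF1A* had been disrupted by homologous recombination. Since it is a single line, the effect of the disruption and other differences between the lines cannot be told apart. In such bulk cultures, fewer transcribing cells and fewer polymerases per cell cannot be told apart either.

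All 7 enzymes use O2, Fe(II) and 2-oxoglutarate. TET1, TET2 and TET3 oxidize 5-methylcytosine in DNA, the first step of active DNA demethylation. FTO and ALKBH5 remove methyl groups from adenosines in RNA, where N6-methyladenosine marks affect RNA export, decay and translation, while ALKBH1 and ALKBH3 belong to the AlkB family that removes alkyl groups from nucleic acids, ALKBH3 in alkylation repair and ALKBH1 in tRNA among other substrates. The prolyl hydroxylases that mark HIF1A for degradation when O2 is plentiful belong to the same enzyme superfamily, and HIF1A is the O2-regulated subunit of a transcription factor that binds the core letters ACGTG or GCGTG near its target genes.

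Gene body totals were 18125234 to 23622392 reads per library, and TSS totals were 2783581 to 5966348. The lowest TSS totals belonged to replicate 1 of HIF1A-/- normoxia (2783581 reads) and replicate 1 of HIF1A-/- hypoxia (3011758 reads), against 3813025 or more in every other library. Reads over the *HIF1A* gene body were at 129 to 164 CPM (counts scaled to a library total of 1000000 reads) in the WT libraries and 141 to 172 in the HIF1A-/- libraries, so transcription through the locus continued, and these reads do not check the genotype labels. Of the markers of colorectal epithelium, 8 of 9 passed the filter, with a summed gene body level of 851 to 1234 CPM, although *CEACAM5* did not. Among them *KRT20*, a keratin of differentiated intestinal epithelium, was higher in HIF1A-/- than in WT cells, by 4.32 on the log2 scale in normoxia and 4.69 in hypoxia (adjusted p = 0.0206 and 0.0111 by edgeR's test). It was the one marker of this list called by edgeR, against 1.78% and 4.26% of all genes. At an unadjusted p under 0.05 were 4 and 5 of the 8 markers. Of all 16686 genes, 654 were higher and 848 lower at this p in normoxia, and 1115 and 1513 in hypoxia. With the block and by DESeq2, *EPCAM* was called lower in both comparisons and *CDH1* lower in hypoxia, and *KRT19* was called higher in normoxia. The block also called *KRT8* and *KRT18* higher in hypoxia. Of all genes, the block called 10.3% in normoxia and 28.2% in hypoxia, and DESeq2 called 3.93% and 8.01%. The part of these marker differences in the genotype comparisons was not tested. Summed levels of leukocyte (1 of 4 tested), endothelial (2 of 3) and fibroblast markers (3 of 5) were 2.59 to 4.23, 8.14 to 28.0 and 20.8 to 58.2 CPM, with *PTPRC*, *PECAM1* and *COL1A2* among those below the filter.

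The promoters of *ALKBH5* and *TET2*, the pair of genes whose gene bodies were higher in hypoxic WT cells by the fit that pairs replicates, are shown with that of *TET1*, which was lower in HIF1A-/- cells by the same fit. Each window is 300 bases of the GRCh37 reference, from 250 bases before the TSS that was counted, 5′ to 3′ on the strand of the gene, and capitals mark the HIF core letters ACGTG or GCGTG on either strand. The windows are chr17:18086616-18086915, chr4:106067591-106067890 and chr10:70319866-70320165, all on the plus strand.
ALKBH5: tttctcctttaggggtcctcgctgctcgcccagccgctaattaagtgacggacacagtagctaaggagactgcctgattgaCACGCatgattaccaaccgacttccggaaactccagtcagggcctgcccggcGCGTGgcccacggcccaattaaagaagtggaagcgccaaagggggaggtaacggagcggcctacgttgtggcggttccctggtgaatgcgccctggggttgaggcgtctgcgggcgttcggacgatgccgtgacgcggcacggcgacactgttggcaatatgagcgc
TET2: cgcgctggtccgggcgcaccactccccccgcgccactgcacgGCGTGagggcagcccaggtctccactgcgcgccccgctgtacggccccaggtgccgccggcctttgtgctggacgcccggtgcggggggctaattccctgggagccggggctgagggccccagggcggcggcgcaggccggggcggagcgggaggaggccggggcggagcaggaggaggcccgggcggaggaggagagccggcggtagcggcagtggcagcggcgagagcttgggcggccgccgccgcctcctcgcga
TET1: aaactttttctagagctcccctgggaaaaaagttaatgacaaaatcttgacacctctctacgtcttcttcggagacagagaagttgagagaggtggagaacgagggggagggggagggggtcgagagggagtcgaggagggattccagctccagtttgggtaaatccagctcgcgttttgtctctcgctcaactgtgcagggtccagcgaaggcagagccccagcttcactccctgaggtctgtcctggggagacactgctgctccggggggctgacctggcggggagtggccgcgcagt
The *ALKBH5* window held GCGTG once on its own strand, 117 bases before the TSS, and once on the opposite strand, at bases 169 to 165 before it, where it reads CACGC. That of *TET2* held GCGTG once, 208 bases before the TSS, and that of *TET1* held none. Of the others, *FTO* held 1 GCGTG and *ALKBH3* held 1 ACGTG and 1 GCGTG, whereas *TET3* and *ALKBH1* held neither. ACGTG on either strand was present in 24.8% of all 15212 tested windows, GCGTG in 47.9%, and at least one of them in 59.9%, so their presence in 4 of 7 windows is close to the share in all genes. The counted TSS lay within 22 bp of an annotated transcript start for *TET1*, *FTO*, *ALKBH1* and *ALKBH3*, but 102 bp, 123 bp and 276 bp from the nearest one for *TET2*, *TET3* and *ALKBH5*.

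Levels were compared between genes as CPM per kb of gene body (RPKM). In WT normoxia, *ALKBH5* (chromosome 17, gene body 18087867 to 18113268, plus strand) had the highest level of the 7, at 3.15 ± 0.46 RPKM (SD, n = 2). It was followed by *ALKBH1* (chromosome 14, 78138748 to 78173355, minus strand) at 1.97 ± 0.18, *TET3* (chromosome 2, 74214531 to 74335303, plus strand) at 1.51 ± 0.043, and *ALKBH3* (chromosome 11, 43903357 to 43941825, plus strand) at 1.14 ± 0.0085. The lowest were *TET2* (chromosome 4, 106068842 to 106200960, plus strand) at 0.666 ± 0.026, *TET1* (chromosome 10, 70321117 to 70454239, plus strand) at 0.642 ± 0.061, and *FTO* (chromosome 16, 53738875 to 54148379, plus strand) at 0.509 ± 0.021. The libraries of neighbors in this order did not overlap, except for those of *TET2* and *TET1*. Against a median of 1.29 RPKM over all tested genes, *ALKBH5* lay at percentile 78.4, whereas *FTO*, whose gene body of 410 kb is the longest of the 7, lay below the median. The order of the first 4 genes was the same in all groups, with *ALKBH3* and *TET2* overlapping in WT hypoxia. Exons of protein-coding transcripts covered between 1.69% (*FTO*) and 11.3% (*TET2*) of the gene bodies, so the counted sequence was mostly intronic.

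**Figure D1:**
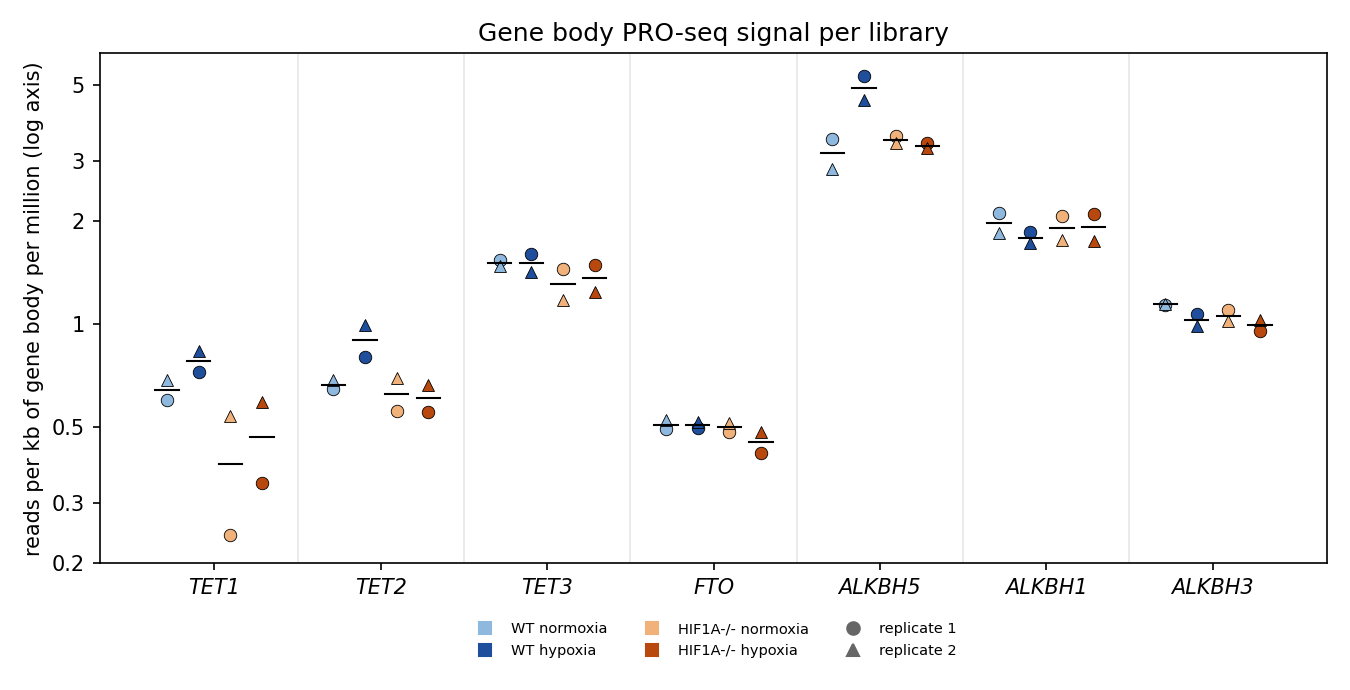
Gene body level of each gene in each of the 8 libraries, in RPKM on a log axis. Circles are replicate 1, triangles are replicate 2, and bars are group means (n = 2). *ALKBH5* was highest in every library, and the 2 WT hypoxia libraries of *ALKBH5* (5.30 and 4.49) lay above its other 6, while *TET1* was lowest in replicate 1 of both HIF1A-/- groups (0.24 and 0.34).

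To ask whether acute hypoxia changed the transcription of these genes in WT cells, gene body counts were compared after 90 min at 1% O2 and in normoxia. None of the 7 was called by edgeR's quasi-likelihood test at a false discovery rate (FDR) of 10%, against 0.431% of all tested genes. At an unadjusted p under 0.05, 585 of the 16686 genes were higher in hypoxia and 184 lower. *ALKBH5* and *TET2*, 2 of the 7, were among the higher ones. Libraries with the same replicate number deviated together from their group means, and when the replicate number was added to the fit as a block, both were called, against 5.51% of all genes in either direction and 3.73% that were higher. DESeq2 with the block also called both, with 4.66% of all genes higher. DESeq2 without the block called none of the 7, against 1.05% of all genes. The median log2 fold change of the 7 was -0.03, beside -0.02 over all tested genes.

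The gene body of *ALKBH5*, the RNA demethylase, had 88.2 and 71.8 CPM in WT normoxia (replicates 1 and 2) and 135 and 114 CPM in WT hypoxia. Both hypoxic libraries lay above both normoxic ones, as was the case for 19.8% of all tested gene bodies. The log2 fold change was 0.61 (standard error 0.165, 95% confidence interval 0.22 to 0.99), with an unadjusted p of 0.00642 and an adjusted p of 0.579 in edgeR's quasi-likelihood test. With the replicate block it was 0.61 (standard error 0.0883, adjusted p = 0.0133), and the adjusted p ran from 6.8e-05 to 1.00 over all alternatives. Leaving out each library in turn gave log2 fold changes of 0.45 to 0.78.

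*TET2*, which like the other TET enzymes acts on methylated cytosines, had 85.6 and 90.4 CPM in WT normoxia and 106 and 131 CPM in WT hypoxia, with no overlap between the groups. The log2 fold change was 0.40 (standard error 0.147, interval 0.06 to 0.74), with an unadjusted p of 0.0274 and an adjusted p of 0.897 by edgeR's test. The block gave 0.39 (standard error 0.0906, adjusted p = 0.0738), with adjusted p-values from 0.041 to 1.00 over all alternatives. Without replicate 2 of WT hypoxia the log2 fold change of *TET2* was 0.26.

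The other 5 gene bodies were not called in WT cells by edgeR or DESeq2, with or without the block. *TET1* had 79.8 and 91.3 CPM in normoxia and 96.5 and 111 CPM in hypoxia. These groups did not overlap, but the log2 fold change of 0.25 had an interval of -0.52 to 1.02. *TET3* went from 186 and 178 CPM to 193 and 172 CPM, and *FTO* from 202 and 214 CPM to 204 and 212 CPM, so that the groups overlapped for both. *FTO* had the narrowest interval of the 7, -0.29 to 0.22 around -0.03, which excludes changes of the size estimated for *ALKBH5*. The AlkB repair enzyme gene *ALKBH3* had 43.7 and 44.1 CPM in normoxia and lower values of 41.3 and 38.0 CPM in hypoxia, and *ALKBH1* had 72.8 and 63.8 CPM, then 64.1 and 59.6 CPM, with overlap. Their log2 fold changes were -0.18 (interval -0.50 to 0.15) and -0.17 (interval -0.60 to 0.25).

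**Figure D2:**
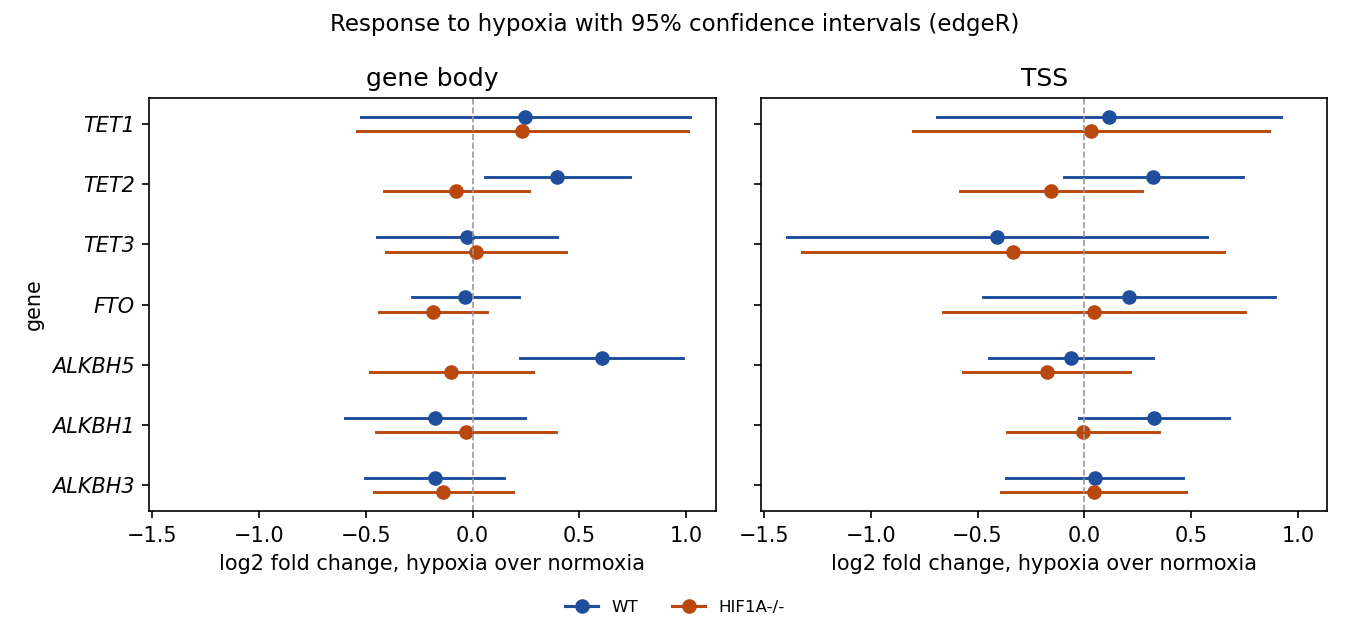
Log2 fold change of hypoxia over normoxia for the 7 genes in WT (blue) and HIF1A-/- cells (orange), in gene bodies (left) and TSS regions (right). Points are edgeR estimates and lines are 95% confidence intervals. In gene bodies the WT intervals of *ALKBH5* (0.22 to 0.99) and *TET2* (0.06 to 0.74) lay above 0, whereas all 7 HIF1A-/- intervals and all 14 TSS intervals included 0.

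In HIF1A-/- cells, the same comparison by edgeR without the block called none of the 7 gene bodies, and none had an unadjusted p under 0.05. Of all genes 0% were called by edgeR (with 175 higher and 172 lower at an unadjusted p under 0.05), 0.036% with the block and 0.0479% by DESeq2, and neither of these fits called any of the 7. *ALKBH5* had 89.7 and 85.8 CPM in normoxia and 85.6 and 82.9 CPM in hypoxia, a log2 fold change of -0.10 (interval -0.48 to 0.28). *TET2* had 73.5 and 91.8 CPM in normoxia and 73.2 and 88.0 CPM in hypoxia, a log2 fold change of -0.08 (interval -0.42 to 0.26). For both genes hypoxia moved the HIF1A-/- libraries by little compared with the WT libraries, and for *TET2* the replicates of one group differed more than the groups did. *FTO* had 199 and 210 CPM in normoxia and 172 and 198 CPM in hypoxia, with the lowest log2 fold change of the 7 in HIF1A-/- cells, -0.18 (interval -0.44 to 0.07). With the block *FTO* was the 1 member at an unadjusted p under 0.05 (0.0493 by edgeR's test), beside 920 higher and 685 lower of all genes. The remaining 4 genes had log2 fold changes of -0.14 to 0.23.

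Whether the response differed between the genotypes was tested as an interaction, the WT log2 fold change minus the HIF1A-/- one. It was largest for *ALKBH5*, at 0.70 (standard error 0.233, interval 0.17 to 1.24), with an unadjusted p of 0.0166 (adjusted p = 1.00, edgeR's quasi-likelihood test). Blocked by replicate, the adjusted p was 0.103, just short of the threshold, and DESeq2 with the block called it (adjusted p = 0.009), as it did 0.793% of all genes in this direction. *TET2* followed at 0.47 (standard error 0.208, interval -0.01 to 0.95, unadjusted p = 0.0534 by the same edgeR test), with an adjusted p of 0.549 with the block. For the other 5 genes the difference between the genotypes was -0.14 to 0.15. *ALKBH5* was the one of the 7 with an unadjusted p under 0.05 by edgeR without the block, beside 210 higher and 17 lower of all 16686 genes. With the block *TET2* joined it (unadjusted p = 0.00635 by edgeR's test), beside 555 higher and 358 lower of all genes. None of the 7 was called by edgeR, by edgeR with the block or by DESeq2, against 0.0539%, 0.384% and 0.408% of all genes.

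HIF1A-/- cells were next compared with WT cells in normoxia. *TET1* had 79.8 and 91.3 CPM in WT cells and 32.2 and 71.7 CPM in HIF1A-/- cells, so that its groups did not overlap, as was the case in this direction for 17.0% of all tested gene bodies, while the 2 HIF1A-/- libraries lay further apart than replicate 2 and either WT library. Its log2 fold change of -0.74 (standard error 0.336) was not called (adjusted p = 0.585 by edgeR's test), and that of -0.81 with the block was (adjusted p = 0.0526). The value rested on 1 library: it was -0.27 without replicate 1 of HIF1A-/- normoxia and -1.35 without replicate 2. For *ALKBH5* and *TET2* the normoxic levels overlapped between the genotypes, with log2 fold changes of 0.13 (interval -0.25 to 0.51) and -0.10 (interval -0.44 to 0.24). *TET3*, *FTO*, *ALKBH1* and *ALKBH3* had values of -0.20 to -0.03, and none of these 4 was called by edgeR or DESeq2, with or without the block. Of the 7, edgeR called 0, DESeq2 0 and edgeR with the block 1, against 1.78%, 3.93% and 10.3% of all genes. The 1 gene, *TET1*, was lower, as were 6.39% of all genes with the block and 5.47% by DESeq2 with the block, which also called it, and no member had an unadjusted p under 0.05 by edgeR without the block.

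In hypoxia, 3 of the 7 gene bodies were lower in HIF1A-/- than in WT cells by the fit with the block, *TET2*, *ALKBH5* and *TET1*. This fit called 28.2% of all genes, 15.1% of all genes being lower, and DESeq2 with the block called the same 3 genes, with 12.2% of all genes lower. Without the block edgeR called none, against 4.26% of all genes. At an unadjusted p under 0.05 by edgeR were *TET2* and *ALKBH5*, beside 1115 higher and 1513 lower of all 16686 genes. DESeq2 called *TET2* and *ALKBH5*, against 8.01% of all genes in either direction and 4.83% that were lower. *TET2* had 106 and 131 CPM in WT and 73.2 and 88.0 CPM in HIF1A-/- cells, a log2 fold change of -0.57 (standard error 0.147), with an adjusted p of 0.108 by edgeR's test, 0.00498 with the block and 0.0327 by DESeq2. *ALKBH5* had 135 and 114 CPM against 85.6 and 82.9 CPM. Its log2 fold change was -0.57 (standard error 0.165), with adjusted p-values of 0.144, 0.00431 and 0.0478 in the same order. Neither gene's groups overlapped, as was the case in this direction for 22.6% of all tested gene bodies.

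*TET1* had 96.5 and 111 CPM in hypoxic WT cells and 45.8 and 79.0 CPM in hypoxic HIF1A-/- cells. The difference of -0.75 on the log2 scale (standard error 0.335) had an adjusted p of 0.331 by edgeR's test and 0.0287 with the block, and it was -0.44 without replicate 1 of HIF1A-/- hypoxia and -1.15 without replicate 2. The other 4 genes had values of -0.18 to 0.10, and neither edgeR nor DESeq2 called them, with or without the block.

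**Figure D3:**
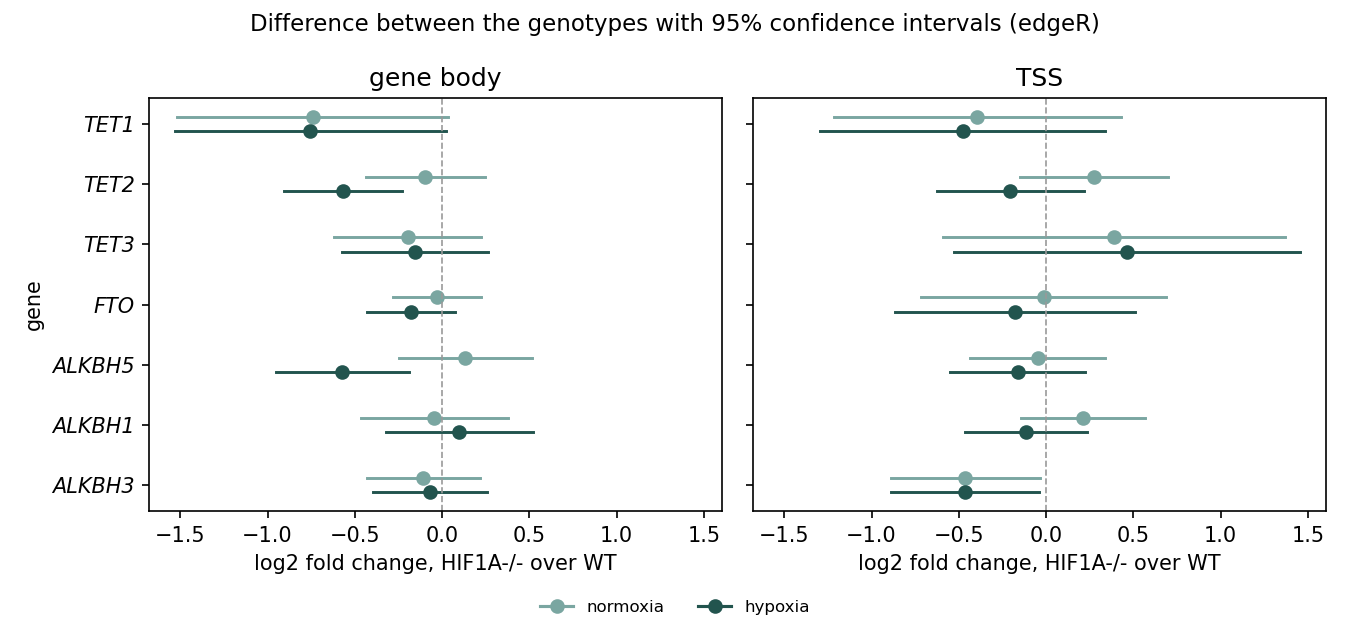
Log2 fold change of HIF1A-/- over WT cells in normoxia (light) and hypoxia (dark), in gene bodies (left) and TSS regions (right). Points are edgeR estimates and lines are 95% confidence intervals. In gene bodies *ALKBH5* was at 0.13 in normoxia and -0.57 in hypoxia, *TET1* was at -0.74 and -0.75, and in TSS regions *ALKBH3* was at -0.46 and -0.47.

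TSS regions of 551 bp, where polymerases that pause shortly after initiation accumulate, were then compared in the same way. In WT cells hypoxia left the *ALKBH5* TSS region at 150 and 128 CPM, against 159 and 137 CPM in normoxia, a log2 fold change of -0.06 (interval -0.44 to 0.32) and with overlap between the groups. *TET2* had 54.8 and 50.9 CPM in normoxia and 58.7 and 70.6 CPM in hypoxia, without overlap, at 0.32 (interval -0.10 to 0.74). *ALKBH1* had 80.5 and 87.1 CPM, then 98.6 and 107 CPM, also without overlap and also at 0.32 (interval -0.03 to 0.67). Higher values in both hypoxic libraries were seen for 15.3% of all tested TSS regions. No member was called or had an unadjusted p under 0.05 by edgeR, although that of *ALKBH1* was 0.0375 with the block, and of all TSS regions 0.046% were called by edgeR, 1.01% with the block and 0.0986% by DESeq2, neither of which called any of the 7.

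In HIF1A-/- cells the hypoxic log2 fold changes at the TSS ranged from -0.34 (*TET3*) to 0.04 (*FTO*). No member was called by edgeR, by edgeR with the block or by DESeq2, nor had any an unadjusted p under 0.05 by edgeR. The shares of all TSS regions called were 0%, 0.00657% and 0%. The interaction at the TSS was largest for *TET2*, at 0.48 (interval -0.12 to 1.08), and edgeR, edgeR with the block and DESeq2 called none of the 7 (none at an unadjusted p under 0.05 by edgeR), against 0.00657%, 0.046% and 0.0197% of all TSS regions.

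Between the genotypes, the TSS region of *ALKBH3* had 75.1 and 67.7 CPM in WT normoxia against 50.7 and 51.8 CPM in HIF1A-/- normoxia, and 63.7 and 80.5 CPM in WT hypoxia against 53.1 and 52.8 CPM in HIF1A-/- hypoxia. Neither pair of groups overlapped, as was the case in this direction for 18.5% of all tested TSS regions in normoxia and 22.7% in hypoxia. At an unadjusted p under 0.05 by edgeR, 649 TSS regions were higher and 567 lower in normoxia, and 1118 and 961 in hypoxia. *ALKBH3* was the one member among these, which are from the fit without the block. With the block *TET1* joined it in both comparisons (unadjusted p of 0.0424 and 0.0144 by edgeR's test). That fit had 1248 TSS regions higher and 1160 lower at this p in normoxia, and 1854 and 1737 in hypoxia. Its log2 fold changes were -0.46 in normoxia (standard error 0.197, adjusted p = 0.577 by edgeR's test, 0.187 with the block) and -0.47 in hypoxia (standard error 0.195, adjusted p = 0.323, and 0.0946 with the block, which called it), the latter -0.28 without replicate 2 of WT hypoxia. In its gene body the corresponding values were -0.11 and -0.07, neither of them called.

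The *TET1* TSS region showed the same difference between replicates as its gene body, with 30.2 CPM in replicate 1 and 66.7 CPM in replicate 2 of HIF1A-/- normoxia, and 29.2 and 70.1 CPM in hypoxia, against 58.8 to 72.2 CPM in the 4 WT libraries. The block called it in hypoxia (log2 fold change -0.57, adjusted p = 0.0998 by edgeR's test), but without replicate 1 of HIF1A-/- hypoxia the value fitted without the block was 0.00. *TET3*, whose TSS region is sparsely read, went the other way, with 41.7 and 28.6 CPM in the replicate 1 libraries of HIF1A-/- normoxia and hypoxia and 14.0 and 15.4 CPM in the replicate 2 libraries. The part of these 2 libraries with few TSS reads in such values was not tested. In normoxia edgeR, edgeR with the block and DESeq2 called 0 of the 7 TSS regions, against 0.657%, 4.29% and 0.901% of all, and in hypoxia 0, 2 and 0, against 1.1%, 14.4% and 2.13%. Both TSS regions called in hypoxia were lower, as were 6.97% of all with the block.

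The pausing index was taken as the TSS level per bp over the gene body level per bp, each in CPM of its own table, with a median of 47.8 over the 14494 genes tested in both regions in WT normoxia. It was highest for *TET1*, at 178 and 190 in WT normoxia (percentile 88.3 of all genes), followed by *TET2* at 154 and 135 (percentile 83.3). *TET3* was the one member under the median, at 22.1 and 29.0 (percentile 33.1), and the other 4 lay between percentiles 63.4 and 77.4. Other annotated transcript starts lie within the gene bodies of *FTO* (10), *ALKBH3* (6), *TET3* (2), *ALKBH5* (1) and *ALKBH1* (1). Their part in the index was not tested.

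The pausing index of *ALKBH5* was 83.3 and 87.9 in WT normoxia and 51.4 and 51.9 in WT hypoxia. The HIF1A-/- libraries had 82.7 and 66.0 in normoxia, then 74.0 and 63.6 in hypoxia. The 2 WT hypoxia libraries were the lowest of the 8. The WT log2 fold change was -0.67 (standard error 0.204, interval -1.10 to -0.24), with an unadjusted p of 0.00451 and adjusted p-values of 0.760 by edgeR's test and 0.111 with the block. In HIF1A-/- cells it was -0.07 (interval -0.51 to 0.36), and the interaction was -0.60 (interval -1.21 to 0.02, unadjusted p = 0.0555). *ALKBH1* went the other way in WT cells, from 69.4 and 85.7 to 96.7 and 112, a log2 fold change of 0.50 (interval 0.02 to 0.98, unadjusted p = 0.0432 by edgeR's test, adjusted p = 0.872).

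For the other 5 genes the WT log2 fold change of the pausing index was -0.37 to 0.26, with all intervals including 0. HIF1A-/- cells in normoxia had values over WT of -0.35 (*ALKBH3*) to 0.48 (*TET3*), the latter -0.20 without replicate 1 of HIF1A-/- normoxia. Of the 7 members, edgeR called none in the hypoxic response of WT or HIF1A-/- cells, in the interaction or between the genotypes in normoxia, against 0.193%, 0%, 0.0207% and 0.0759% of all genes. At an unadjusted p under 0.05 the counts of members were 2, 0, 0 and 0. Of all 14494 genes, 299 were higher and 454 lower at this p in the WT response. No member was called with the block, which called 9 higher and 61 lower of all 14494 genes in the WT response. In HIF1A-/- cells it called 0 and 0, in the interaction 1 and 20, and between the genotypes in normoxia 40 and 59.

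**Figure D4:**
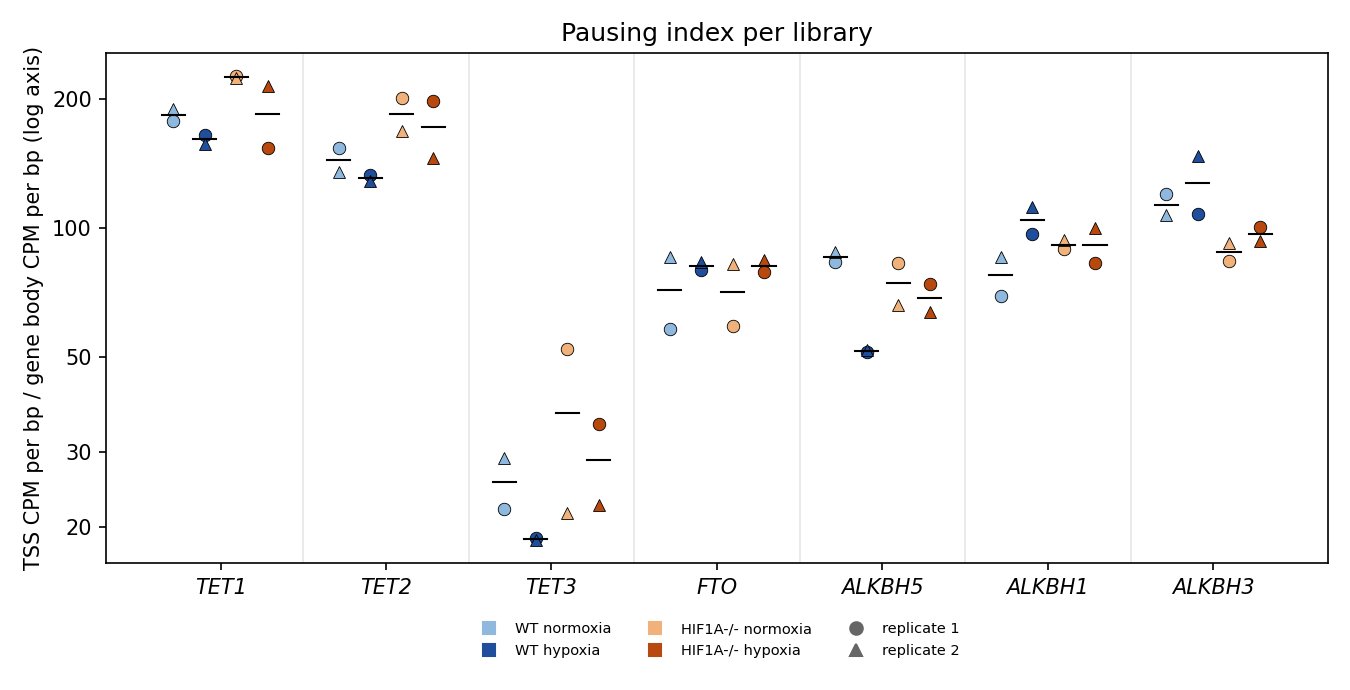
Pausing index of each gene in each of the 8 libraries, as the TSS level per bp over the gene body level per bp, on a log axis. Circles are replicate 1, triangles are replicate 2, and bars are group means (n = 2). *ALKBH5* was at 51.4 and 51.9 in the WT hypoxia libraries and at 83.3 and 87.9 in WT normoxia, a difference that was not called, and *TET3* was lowest of the 7 in every library.

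Among the 7 genes, 4 have a neighbor on the opposite strand that overlaps the gene body or starts within 2000 bp. Neighbors on the same strand were not searched. *TET2-AS1* lies over 108451 bp of the *TET2* gene body on the opposite strand, *ALKBH3-AS1* over 10656 bp of that of *ALKBH3*, *RPGRIP1L* starts 24 bp from *FTO* and *SLIRP* 57 bp from *ALKBH1*, both on the opposite strand. Counting used strand, since all 425 gene bodies enclosed by another on the same strand had 0 reads, as against 21.1% of 876 enclosed on the opposite strand. *TET2-AS1* had 21.1 and 20.4 CPM in WT normoxia and 19.1 and 16.04 CPM in WT hypoxia, opposite in direction to *TET2* but not called (log2 fold change -0.27, interval -0.86 to 0.33). *ALKBH3-AS1* had 0 or 1 gene body reads in each library. *RPGRIP1L*, which encodes a protein of the ciliary transition zone, and *SLIRP*, which encodes a mitochondrial RNA-binding protein, had WT log2 fold changes of -0.06 and -0.22, and none of the 3 neighbors tested was called in any of the 5 gene body comparisons by edgeR, with or without the block.

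The gene body patterns most like those of the members were found over the 8 libraries and 16686 genes by the root mean square difference of mean-centered log2 CPM. For *ALKBH5* they were *CLK3* (0.060) and *NCKIPSD* (0.071), for *TET2* *KMT2E* (0.045) and *TMF1* (0.052), and for *TET1* *LOC101926889* (0.082) and *YPEL3* (0.083). *CLK3*, which encodes a kinase of splicing factors, had 75.4 and 64.1 CPM in WT normoxia, 114 and 95.2 CPM in WT hypoxia, and 75.6 to 79.1 CPM in the HIF1A-/- libraries. The nearest genes to *TET3* were *EEF2K* and *SET*, those to *FTO* were *VPS13A* and *SEPT7*, those to *ALKBH1* were *ETF1* and *EIF3A*, and those to *ALKBH3* were *CCP110* and *ZNF213-AS1*, with differences of 0.023 to 0.044. These values describe likeness over 8 libraries, in which all genes of a library share its depth, and carry no test.

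Among related genes, the 5 further AlkB homologs, *ALKBH2*, *ALKBH4*, *ALKBH6*, *ALKBH7* and *ALKBH8*, were not called in any gene body comparison by edgeR, edgeR with the block or DESeq2, and 0 had an unadjusted p under 0.05 by edgeR. Their WT hypoxia log2 fold changes were -0.15 to 0.34, the highest being that of *ALKBH7*, a mitochondrial AlkB protein (standard error 0.276). Of 18 writers and readers of N6-methyladenosine, 15 genes of DNA methylation and its turnover, and 9 genes of alkylation repair, edgeR called 0 in every gene body comparison, with at most 2 genes of a list at an unadjusted p under 0.05. DESeq2 called *DNMT3B* and *NEIL1* between the genotypes in hypoxia and no other gene of these lists. With the block, the RNA methyltransferase gene *METTL16* was lower in WT hypoxia (log2 fold change -0.36, adjusted p = 0.0794 by edgeR's test). In hypoxic HIF1A-/- cells over WT cells, the block called *DNMT3B*, a de novo DNA methyltransferase, at 0.61 (adjusted p = 0.00677), together with 5 other genes of DNA methylation and its turnover (*MBD1*, *UHRF1* and *DNMT1* higher, *NEIL1* and *CXXC4* lower), 2 m6A readers (*YTHDC1* and *IGF2BP1*, both lower) and 2 repair genes (*MPG* higher, *ASCC1* lower). These were 6 of 15, 2 of 18 and 2 of 9 genes of their lists, beside the 28.2% of all genes that this fit called in the same comparison.

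Of 22 genes for dioxygenases that act on proteins, 21 passed the filter. The median log2 fold change over all tested genes in WT hypoxia was -0.02, and edgeR's quasi-likelihood test called 0.431% of them. Of the 21 genes, 7 rose by this test, with 0 lower and a median log2 fold change of 0.38. They were the histone demethylase genes *KDM3A* (2.39, standard error 0.188, adjusted p = 0.00537), *KDM4B* (1.49, adjusted p = 0.00633) and *KDM4C* (1.01, adjusted p = 0.089), the HIF prolyl hydroxylase genes *EGLN1* (1.38, adjusted p = 0.0196) and *EGLN3* (2.17, adjusted p = 0.0314), and the collagen hydroxylase genes *P4HA1* (2.33, adjusted p = 0.00633) and *PLOD2* (1.84, adjusted p = 0.0459). In HIF1A-/- cells 0 of the 21 were called (2 at an unadjusted p under 0.05), against 0% of all genes. The interaction was called for *P4HA1*, *KDM4B* and *KDM3A*, against 0.0539% of all genes. No test compared this list with the 7 genes. *ALKBH5*, with the largest WT response among the 7, had a log2 fold change of 0.61, above the median of 0.38 of this list. Each of the 7 called genes lay higher, but they had been picked out by that same response. Of 7 enzymes that make or consume 2-oxoglutarate or 2-hydroxyglutarate, *LDHA*, which encodes lactate dehydrogenase A, was the one called in WT hypoxia. Its log2 fold change was 1.66 (adjusted p = 0.00761 by the same test), and the share called over all genes was 0.431%.

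**Figure D5:**
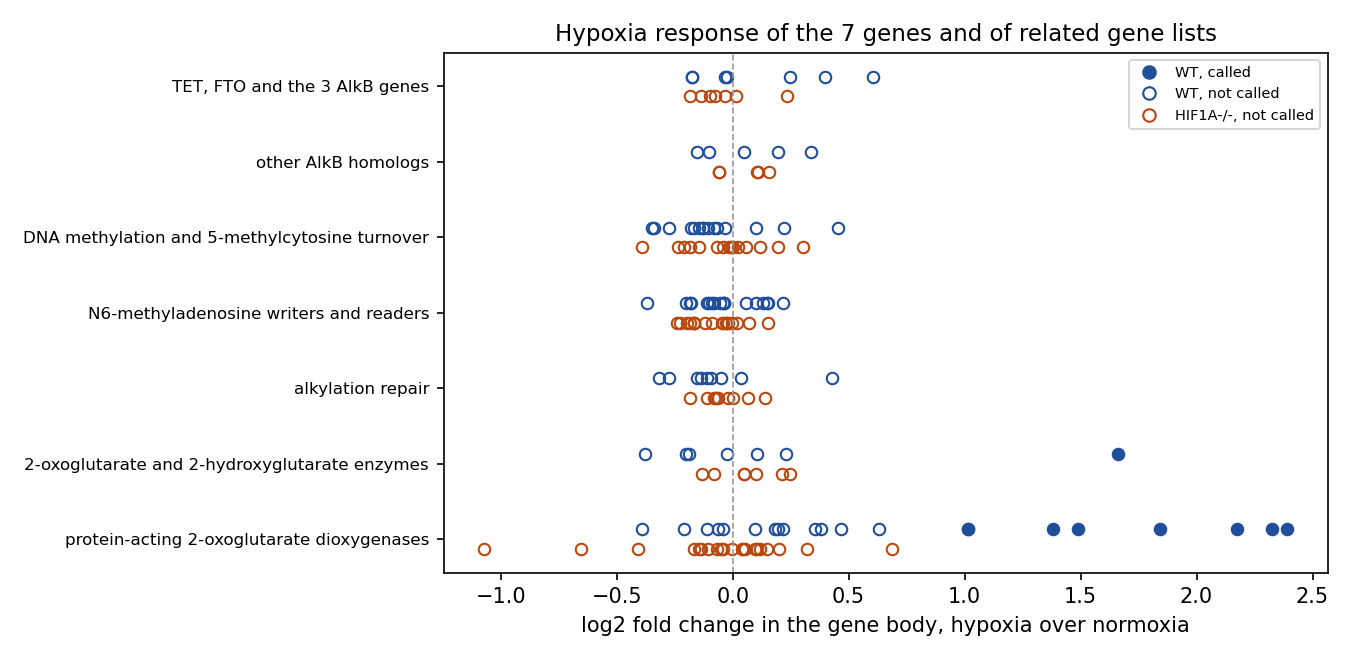
Gene body log2 fold change of hypoxia over normoxia for the 7 genes and the related lists, 1 point per tested gene. Blue points are WT and orange points HIF1A-/- cells, and filled points were called by edgeR at an FDR of 10%. The filled points are *LDHA* at 1.66 and 7 dioxygenases that act on proteins at 1.01 to 2.39, while the 7 nucleic acid dioxygenases lay between -0.18 and 0.61 in WT cells.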

How the data were processed

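PRO-seq was done on 8 libraries of HCT116 cells, in 4 groups of 2 taken from the sample labels. According to the study's methods, nuclei were prepared as 2 independent replicates. The authors merged reads of 2 sequencing runs per library, trimmed them, aligned them to GRCh37 with HISAT2 2.1.0, kept mapping qualities above 10 and counted them with featureCounts (Subread 1.6.2). The deposited values are raw read counts per gene for a TSS region, from 50 bp before to 500 bp after 1 TSS per gene, and for a gene body that starts 1001 bp from it. Other start sites thus have no TSS region of their own, and reads from those within a gene body are counted in it. From these counts, genes with over 0.5 CPM in at least 2 libraries were tested with edgeR 4.0.16 (glmQLFit and glmQLFTest, TMM, R 4.3.3), with 1 fit of the 4 group means per region, Benjamini-Hochberg adjustment over all genes and an FDR of 10%. The pausing index was tested with both regions as 16 columns and a term per library. The study's own tool, DESeq2 (here 1.42.0), served as an alternative, as did other normalizations, filters and an FDR of 5%. Intervals are 95% and cover these samples only. Fits were tested on simulated counts without a replicate effect, which do not check the calls made with the block.

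All groups carry replicate numbers 1 and 2. Deviations from the group mean of same-numbered libraries correlated across genes in all 6 pairs of groups (0.481 to 0.789 in gene bodies, 0.216 to 0.518 at the TSS). The numbers were taken to pair the samples, and values with the block are given where they change a call. Promoter windows and transcript starts came from GRCh37 and a GENCODE annotation lifted to that build. The 7 genes and the gene lists were chosen with earlier results of these data known. Named beside the 7 genes were the other AlkB homologs, up to 5 called genes per list, comparison and direction with the smallest p, neighbors within 2000 bp or overlapping on the opposite strand, and the 2 nearest patterns per gene. Genes called only with the block, *PLOD2* and *KDM4C* were named after their values were seen.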

Additional observations from a re-analysis of the deposited data

Results flagged for a closer look

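In 3 instances, 2 of the 7 gene bodies and 1 of the 7 TSS regions, both WT replicate pairs moved one way in hypoxia and both HIF1A-/- pairs the opposite way. None of the 7 pausing indices did so. The same held for 11.8% of all 16686 tested gene bodies, 11.6% of TSS regions and 10.9% of pausing indices. For the *ALKBH5* gene body, the log2 ratios of hypoxia over normoxia within replicates 1 and 2 were 0.61 and 0.67 in WT cells and -0.07 and -0.05 in HIF1A-/- cells, with an interaction of 0.70. For the *TET2* gene body they were 0.30 and 0.54 in WT cells and -0.01 and -0.06 in HIF1A-/- cells, with an interaction of 0.47. For the *TET2* TSS region they were 0.10 and 0.47, and -0.03 and -0.27, with an interaction of 0.48. The interaction itself was tested and had an adjusted p of 1.00 by edgeR's quasi-likelihood test for all 3, while DESeq2 with the replicate block called it for the *ALKBH5* gene body (adjusted p = 0.009), as it did in this direction for 0.793% of all genes.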

How the results depend on the processing

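Counts of the 7 genes called in gene bodies moved from 0 with the replicate block to 2 in WT hypoxia (*ALKBH5* and *TET2*), 1 between the genotypes in normoxia (*TET1*) and 3 in hypoxia (*ALKBH5*, *TET1* and *TET2*). DESeq2 with the block gave 2, 1 and 3 and added 1 in the interaction (*ALKBH5*), with 4.66%, 5.47%, 12.2% and 0.793% of all genes called in the same direction, DESeq2 alone gave 2 between the genotypes in hypoxia, and leaving out 1 library at a time gave 0 to 1 there (*TET2*, without replicate 2 of HIF1A-/- normoxia). At the TSS the block called 2 between the genotypes in hypoxia (*ALKBH3* and *TET1*). The block changed no other call of the 7 genes, and total counts in place of TMM, RLE, no filter, a stricter filter, fits of only the groups compared and an FDR of 5% moved none of these counts from 0. Log2 fold changes of the 7 genes changed sign in 32 of 588 alternative values in gene bodies, 42 of 588 at the TSS and 29 of 280 of the pausing index, none of them called. Over all genes, calls with and without the block were 919 and 72 in WT hypoxia, 6 and 0 in HIF1A-/- hypoxia, 64 and 9 in the interaction, 1722 and 297 between the genotypes in normoxia and 4706 and 711 in hypoxia, and DESeq2 gave 175, 8, 68, 630 and 1311. The interaction was called for 3 dioxygenases that act on proteins, 8 with the block and 9 by DESeq2. The cause of these differences was not tested. With 2 libraries per group, some WT hypoxia intervals were wide. They ran from -0.52 to 1.02 for the *TET1* gene body and from -1.39 to 0.57 for the *TET3* TSS region. The data do not exclude changes within these intervals.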
